A study of Mus musculus with 10 samples.

Results

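The barrier lipid synthesis and transport genes comprise 10 genes, Elovl4, Cyp4f39, Cers3, Pnpla1, Ugcg, Abca12, Alox12b, Aloxe3, Sdr9c7 and Lipn. They were chosen by name, and all 10 were found among the 24543 entries of the authors' gene table and passed the expression filter. RNA sequencing measured them in whole dorsal skin of C57BL/6 mice in which the homeobox gene Dlx4 is labelled as ablated (Dlx4-KO) or wild type (Dlx4-WT), at postnatal day 60 (P60) and postnatal day 1 (P1). There were 2 Dlx4-KO and 2 Dlx4-WT samples at P60 and 3 Dlx4-KO and 3 Dlx4-WT samples at P1, called KO and WT here. The labels do not say how the Dlx4 allele was made, which samples came from the same litter or whether animals were pooled, so p-values measure the spread between these samples. The stated aim was to detect differences in the skin RNA of Dlx4-ablated mice.

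The outermost epidermis keeps water in with stacked lipid sheets that granular keratinocytes make, pack into lamellar granules and secrete. Ceramides that carry ultra-long, omega-hydroxylated fatty acids esterified to linoleate are characteristic of these sheets. Elongation, hydroxylation, ceramide synthesis, glucosylation, transport into the granule and oxidation of the linoleate follow each other, and human mutations in several of these genes cause ichthyosis, a scaling disorder of the skin.

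The genes lie on 8 chromosomes (positions from GENCODE M21 for mm10, the build named by the authors). Abca12 spans chr1:71242276-71414910 on the minus strand, Ugcg chr4:59189257-59222833, Cers3 chr7:66743504-66823691, Elovl4 chr9:83778692-83806277 on the minus strand, Sdr9c7 chr10:127898518-127911761 and Lipn chr19:34067358-34084918. Aloxe3 at chr11:69125896-69149115 and Alox12b at chr11:69156989-69169792 are neighbours, 7873 bases apart, and lie 26.0 Mb from Dlx4 on the same chromosome. Pnpla1 at chr17:28858411-28890309 and Cyp4f39 at chr17:32452723-32493320 also share a chromosome. Genes without a stated strand are on the plus strand.

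RefSeq promoter sequences (GRCm38.p6) were found for 9 of the 10 members. The 250 bases before the RefSeq start are shown for Abca12 and Sdr9c7, which were higher in KO skin at P60, for Lipn, which was also higher and alone rose with age, and for Pnpla1, which had the largest fall with age. They are chr1:71414911-71415160 (minus strand), chr10:127898285-127898534, chr19:34067108-34067357 and chr17:28858161-28858410, and in Sdr9c7 the last 17 bases lie inside the gene as GENCODE draws it. Capitals mark matches to 5 motifs searched on both strands.
Abca12: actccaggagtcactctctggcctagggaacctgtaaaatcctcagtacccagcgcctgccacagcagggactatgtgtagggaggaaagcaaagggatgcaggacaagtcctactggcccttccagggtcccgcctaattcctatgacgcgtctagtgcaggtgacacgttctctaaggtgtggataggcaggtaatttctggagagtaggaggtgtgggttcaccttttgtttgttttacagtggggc
Sdr9c7: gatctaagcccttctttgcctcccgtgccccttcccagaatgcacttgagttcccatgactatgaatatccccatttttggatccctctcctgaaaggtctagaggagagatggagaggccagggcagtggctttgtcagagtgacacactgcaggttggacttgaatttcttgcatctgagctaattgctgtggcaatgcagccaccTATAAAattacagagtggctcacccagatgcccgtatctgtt
Lipn: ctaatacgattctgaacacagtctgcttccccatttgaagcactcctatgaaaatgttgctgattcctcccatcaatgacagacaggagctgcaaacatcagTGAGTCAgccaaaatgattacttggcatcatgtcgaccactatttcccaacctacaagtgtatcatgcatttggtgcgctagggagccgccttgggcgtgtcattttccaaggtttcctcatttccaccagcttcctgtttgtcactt
Pnpla1: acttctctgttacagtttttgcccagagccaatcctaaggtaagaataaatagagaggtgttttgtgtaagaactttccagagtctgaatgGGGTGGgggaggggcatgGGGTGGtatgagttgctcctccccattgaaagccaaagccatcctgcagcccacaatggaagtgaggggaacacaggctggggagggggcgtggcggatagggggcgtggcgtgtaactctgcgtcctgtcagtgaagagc
The marked stretches are TATAAA in Sdr9c7, TGANTCA (the letters of AP-1 sites) in Lipn and CCACCC (a Klf-type motif) in Pnpla1, where it stands at 2 places and on the other strand, so that it reads GGGTGG. Of the 9 members with a promoter, 1 held TATAAA, against 12.4% of all 32851 promoters, 1 held TGANTCA (6.75%) and 1 held CCACCC (28.1%). None of the 9 held the homeobox motif TAATTA (4.84% of all promoters) or AACNNGTT, the grainyhead-like motif (3.64%), within these windows. The GC content of the windows ran from 46% in Lipn to 80.4% in Ugcg, with a median of 52.4% over all promoters. All 250 bases of the Ugcg window and 83 bases of the Alox12b window lie inside these genes as GENCODE draws them.

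The libraries held 36131011 to 74916106 alignments. Values are RPKM, which corrects read numbers for the length of the gene and the size of the library, so levels of different genes can be set side by side. Dlx4 had 0.000294 and 0 RPKM in KO and 0 and 0.125 RPKM in WT skin at P60, so the P60 labels could not be checked from it, and 1.77, 2.45 and 1.62 RPKM in KO against 2.93, 3.78 and 3.42 RPKM in WT skin at P1. The KO libraries at P1 thus lay below the WT libraries but still held Dlx4 reads, and the sources used here do not say which part of the gene was removed. The P60 libraries came from a different sequencing run than the P1 libraries. Reads of the Y-linked gene Ddx3y were present in the 4 P60 libraries and in KO P1 replicate 2 (7.47 to 16.0 RPKM) and nearly absent from the other 5 P1 libraries (at most 0.0138 RPKM). Age, sequencing run and, but for KO P1 replicate 2, sex can therefore not be told apart. At P1 sex was also not balanced between the genotypes, as only a KO library held Y-linked reads.

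Elovl4 was by far the most abundant member in every group and Lipn or Pnpla1 the least. Elovl4, which elongates fatty acids to ultra-long chains, averaged 84.8 RPKM in KO and 62.1 RPKM in WT skin at P60, and 125 RPKM in KO and 113 RPKM in WT skin at P1. Next came the lipoxygenase genes Alox12b and Aloxe3, whose libraries overlapped each other in 3 of the 4 groups and stood apart in KO skin at P1. At P60 Sdr9c7 and Cers3 stood apart from Lipn, Abca12 and Pnpla1 in both genotypes. Lipn was last at P1 with 3.10 RPKM in KO and 3.40 RPKM in WT skin, and at P60 Pnpla1 was last with 3.84 RPKM in KO and 2.96 RPKM in WT skin, where its libraries overlapped those of Abca12 in WT skin.

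**Figure D1:**
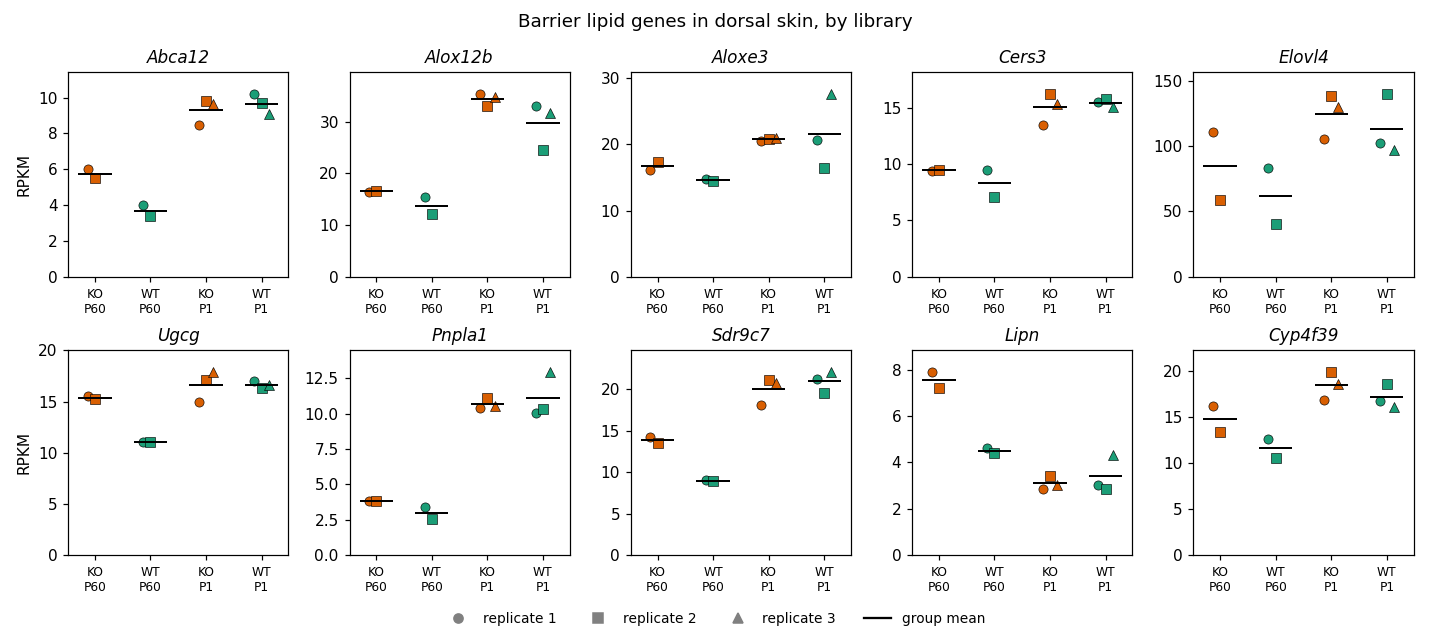
RPKM of the 10 members in each library (points, with a symbol for each replicate number) and group means (bars), with KO and WT skin at P60 on the left and at P1 on the right of each panel. The KO points of Abca12, Ugcg, Sdr9c7 and Lipn lie above the WT points at P60, and P60 libraries lie below P1 libraries in Abca12, Alox12b, Cers3, Pnpla1 and Sdr9c7 and above them in Lipn.

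In adult skin at P60 all 10 members had a higher mean in KO than in WT, and Abca12, Ugcg, Sdr9c7 and Lipn passed the test. Changes are given as log2 differences on the log2(RPKM + 0.5) scale, with limma's moderated test in a model of all 4 groups and Benjamini-Hochberg adjustment over 14026 genes. The 4 calls among 10 members, all higher, stand beside 11.1% of all tested genes called, 8.21% higher and 2.91% lower. A log2 change above 0, seen in all 10 members, was seen in 65.9% of tested genes, and an unadjusted p under 0.05, seen in 6 members, in 32.1%. The median log2 change of the members was 0.40 against 0.13 for all tested genes. KO libraries lay wholly above WT libraries in 8 members, all but Cers3 and Elovl4, which was also the case for 42.7% of all tested genes, while 18.8% had all KO libraries below all WT libraries.

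Among the genes that build the acyl chain and the ceramide, none passed at P60. Elovl4 had 111 and 58.8 RPKM in KO against 83.6 and 40.6 RPKM in WT skin, so the genotypes interleaved, and the log2 change was 0.47 (95% interval -0.34 to 1.28, adjusted p = 0.404 in limma). Cyp4f39, the mouse counterpart of the human fatty acid omega-hydroxylase CYP4F22, had 16.1 and 13.4 RPKM in KO against 12.6 and 10.6 RPKM in WT skin. Its log2 change was 0.34 (SE 0.14, adjusted p = 0.124 in limma), without overlap of the libraries. Cers3, the ceramide synthase for ultra-long acyl chains, had 9.36 and 9.51 RPKM in KO against 9.47 and 7.10 RPKM in WT skin, where WT P60 replicate 1 lay between the KO libraries. Its log2 change was 0.19 (95% interval -0.11 to 0.50, adjusted p = 0.365 in limma).

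Of the genes that modify and ship the ceramide, Ugcg and Abca12 rose. Ugcg, the glucosylceramide synthase that makes the form packed into lamellar granules, had 15.5 and 15.2 RPKM in KO against 11.1 and 11.1 RPKM in WT skin at P60. The groups were far apart relative to their spread, and the log2 change was 0.45 (SE 0.10, adjusted p = 0.0345 in limma), a mean 38.7% higher in KO. Abca12, which carries lipid into lamellar granules, had 6.02 and 5.50 RPKM in KO against 3.98 and 3.39 RPKM in WT skin. The lowest KO library was above the highest WT library, with a log2 change of 0.58 (SE 0.12, adjusted p = 0.0308 in limma), a mean 56.3% higher in KO. Pnpla1, the transacylase that joins linoleate to the hydroxylated ceramide, had 3.85 and 3.83 RPKM in KO against 3.39 and 2.52 RPKM in WT skin. The groups did not overlap, but the log2 change of 0.34 (SE 0.15) had an adjusted p = 0.154 in limma.

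In the oxidation of the linoleate, the last enzyme rose and the lipoxygenases did not pass. Sdr9c7, a dehydrogenase that acts after the lipoxygenases, had 14.3 and 13.5 RPKM in KO against 9.03 and 8.92 RPKM in WT skin at P60. Its log2 change was 0.60 (SE 0.11, adjusted p = 0.0289 in limma), a mean 54.6% higher in KO, and it had the smallest p of the members. Alox12b, which oxidises the linoleate first, had 16.5 and 16.6 RPKM in KO against 15.4 and 12.2 RPKM in WT skin, a log2 change of 0.26 (95% interval -0.081 to 0.61). Aloxe3, the lipoxygenase that acts next, had 16.2 and 17.4 RPKM in KO against 14.8 and 14.5 RPKM in WT skin, a log2 change of 0.19 (95% interval -0.23 to 0.61). KO libraries were above WT libraries in both lipoxygenase genes, by less than the test required. Lipn, an epidermal member of the acid lipase family, had 7.89 and 7.19 RPKM in KO against 4.62 and 4.39 RPKM in WT skin, a log2 change of 0.68 (SE 0.17, adjusted p = 0.0405 in limma). It had the largest change of the members, with a mean 67.3% higher in KO, and rested on about 346 to 888 reads per P60 library, which were approximated from RPKM, alignments and its 1502 exonic bases in GENCODE.

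The calls at P60 depended on the samples that set the spread and on the scaling. None of the 4 genes passed in limma without KO P60 replicate 1, WT P60 replicate 1, KO P1 replicate 2, KO P1 replicate 3 or WT P1 replicate 1 (0 calls each), Sdr9c7 alone passed without WT P60 replicate 2 (1 call), Lipn did not pass without KO P60 replicate 2 or KO P1 replicate 1 (3 calls each), none passed with quantile normalization or when only P60 samples were fitted (0 calls each), and Abca12 and Sdr9c7 alone passed with median-of-ratios size factors (2 calls). With those factors all 10 log2 changes stayed above 0, with a median of 0.25, while the calls among all tested genes were 448 higher and 1056 lower, against 1152 higher and 408 lower with RPKM as deposited. Calls among all tested genes, 1560 in the fit of all samples, fell along with the member calls. They numbered 0 without KO P1 replicate 2, 27 without KO P1 replicate 3 and 3 without WT P1 replicate 1. With quantile normalization there were 55, and 0 when only P60 samples were fitted. In these settings the loss was thus not particular to the 4 genes. Without WT P1 replicate 2 or 3, where all 4 passed, 1090 and 2443 genes were called. The log2 change of Elovl4 was -0.049 and that of Cers3 -0.0042 without WT P60 replicate 2. In the authors' deposited table, which rests on their own analysis of variance, the ratio of KO over WT at P60 ran from 1.14 for Aloxe3 to 1.66 for Lipn. In the authors' deposited table Cyp4f39 and Sdr9c7, 2 of the 10 members, had an unadjusted p under 0.05, as had 7.13% of its 21208 genes with a p-value. The lowest q-value of a member there was 0.624.

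**Figure D2:**
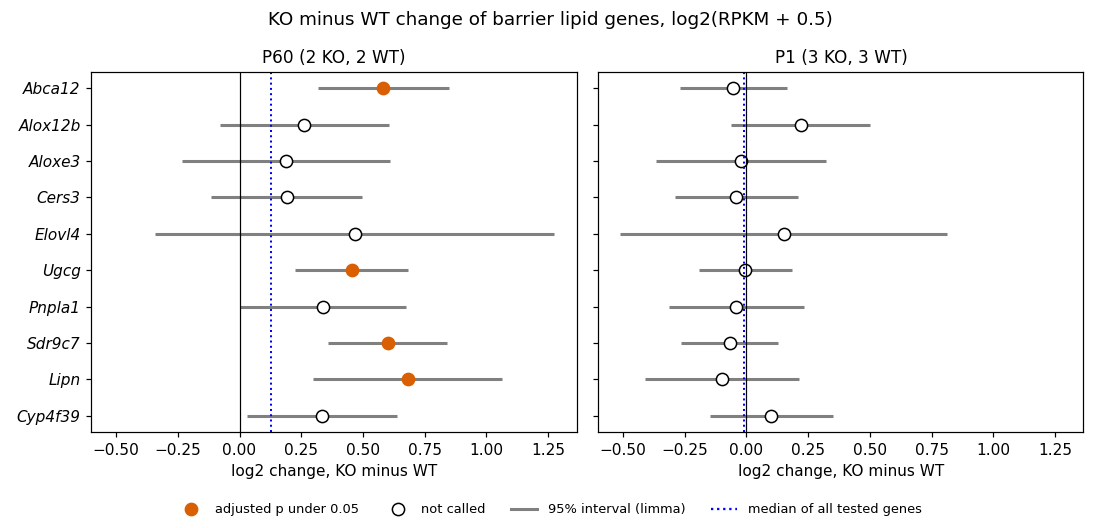
Log2 change of each member, KO minus WT, at P60 (left) and P1 (right), with 95% intervals from limma; filled points have an adjusted p under 0.05 and the dotted line is the median of all tested genes. At P60 all 10 points lie right of 0 with 4 filled, and at P1 the points lie on both sides of 0 with none filled.

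The skin also differed in what else it held at P60. In bulk skin fewer cells of a type and less RNA per cell cannot be told apart. Of 15 measured markers of suprabasal epidermis, the layers in which the barrier lipid genes are active, 12 had a positive log2 change in KO and 2 rose, the filaggrin-like Flg2 (0.71, SE 0.15) and the protease gene Casp14 (0.49, SE 0.11), with a median of 0.41. Their summed level was 6497 to 6599 RPKM in KO against 5324 to 5811 RPKM in WT skin, with none at 0. The 10 basal epidermis markers had a median of 0.17 with 0 called, and summed to 3926 to 4477 RPKM in KO against 3618 to 4662 RPKM in WT skin. All 11 fibroblast markers rose (9866 to 23631 RPKM in KO against 4374 to 5461 RPKM in WT skin), as did 4 of 8 macrophage markers (636 to 687 RPKM in KO against 227 to 441 RPKM in WT skin). All 12 skeletal muscle markers had a negative change and 1 of them, the myosin gene Myh1, fell. Muscle markers made up 5.60% to 8.99% of all RPKM in KO against 11.9% to 12.9% in WT skin at P60. Markers of sebaceous gland (median 0.69), white adipocytes (0.64) and hair shaft and inner root sheath (0.015) had 0 calls at P60. None of the suprabasal, basal, fibroblast, macrophage, muscle, sebaceous or adipocyte markers was at 0 in any library, and their part in the change of the members was not tested.

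When each library was centred on its suprabasal markers, which shifts all its genes alike, the members no longer stood above 0 as a group at P60. Then 5 of the 10 log2 changes were above 0 and 5 below, with a median of 0.055, and none was called in limma. The median of all tested genes was then -0.21, with 62 called higher and 1444 lower, so the members' median remained above it. The members' values were 0.34 for Lipn, 0.26 for Sdr9c7, 0.24 for Abca12 and 0.11 for Ugcg, with SE from 0.13 to 0.19. Centred on basal markers instead, all 10 stayed above 0 with a median of 0.22 and 0 calls. The median of all tested genes was then -0.047, with 3 called higher and 42 lower.

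**Figure D3:**
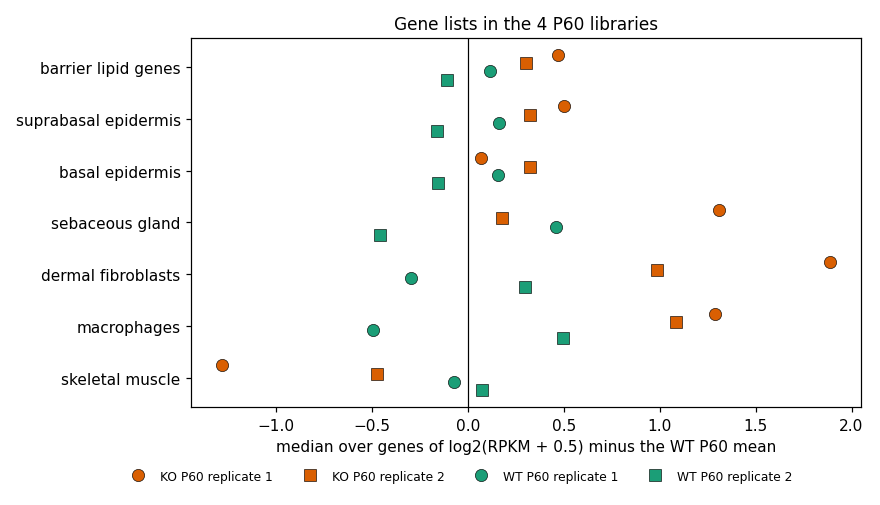
For each gene list (rows) the median over its genes of log2(RPKM + 0.5) minus the mean of the WT P60 libraries, in the 2 KO (orange) and 2 WT (green) libraries at P60. For the barrier lipid genes and the suprabasal markers both KO libraries lie right of both WT libraries, for fibroblast markers they lie further right, and for muscle markers they lie left.

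In newborn skin at P1 no member separated the genotypes. The log2 changes, KO minus WT, ran from -0.10 for Lipn to 0.22 for Alox12b, 3 above 0 and 7 below (45.8% of tested genes were above 0), with a median of -0.031 against -0.0097 for all tested genes. In limma 0 of 14026 genes passed (0% called), and 130 genes (0.927%) but 0 members had an unadjusted p under 0.05. For every member the KO and WT libraries overlapped, while 2.08% of tested genes had all KO libraries above and 2.48% below the WT libraries. Ugcg had the narrowest interval, with 14.9, 17.1 and 17.9 RPKM in KO against 17.0, 16.3 and 16.6 RPKM in WT skin and a 95% interval of the log2 change from -0.19 to 0.18. Sdr9c7 had 18.1, 21.0 and 20.8 RPKM in KO against 21.2, 19.5 and 22.03 RPKM in WT skin (95% interval -0.26 to 0.13), and Abca12 had 8.47, 9.79 and 9.65 RPKM in KO against 10.2, 9.68 and 9.10 RPKM in WT skin (-0.27 to 0.16). At P60 the log2 changes of Sdr9c7 and Abca12 were 0.60 (95% interval 0.36 to 0.84) and 0.58 (0.32 to 0.85). The direct test of the difference between the ages, given below, called neither gene in the fit as reported. Alox12b had 35.4, 33.1 and 34.8 RPKM in KO against 33.1, 24.4 and 31.6 RPKM in WT skin, where WT P1 replicate 2 was lowest, and Aloxe3 had its highest value, 27.6 RPKM, in WT P1 replicate 3. Elovl4 had the widest interval, -0.51 to 0.81. The authors' deposited table gave ratios of KO over WT at P1 from 0.927 for Lipn to 1.17 for Alox12b, all with a q-value of 1.

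Whether the genotype difference changed with age was tested as the KO minus WT change at P60 minus that at P1. It was positive in all 10 members and in 65.9% of tested genes, with a median of 0.35 against 0.14 for all tested genes, and none passed in limma. The values were 0.78 for Lipn (SE 0.22), 0.67 for Sdr9c7 (SE 0.14), 0.64 for Abca12 (SE 0.15) and 0.46 for Ugcg (SE 0.13), with adjusted p from 0.105 to 0.117 in limma. Of all tested genes 0 passed (0% called) and 3214 (22.9%) had an unadjusted p under 0.05, as had these 4 members. With array weights 465 genes passed, Abca12 and Sdr9c7 among them, and without KO P60 replicate 2 there were 755, Sdr9c7 among them. Without WT P60 replicate 2 there were 271 and no member.

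Between the ages 9 of the 10 members were lower at P60 than at P1 and Lipn was higher, and all 10 changes passed in limma, averaged over the genotypes. Of all tested genes 81.7% were called, 57.3% lower and 24.3% higher, 82.7% had an unadjusted p under 0.05 and 33.2% a change above 0, with a median log2 change of -0.39, against a median of -0.76 for the members. Pnpla1 fell most, by 1.56 on the log2 scale (SE 0.10, adjusted p = 3.02e-07 in limma). It averaged 3.84 ± 0.0137 RPKM in KO and 2.96 ± 0.615 RPKM in WT skin at P60 (SD, n = 2 each), against 10.7 ± 0.377 and 11.1 ± 1.60 RPKM at P1 (SD, n = 3 each). Alox12b fell by 1.06, Abca12 by 0.96, Sdr9c7 by 0.84 and Cers3 by 0.76, and in these genes and Pnpla1 all P60 libraries lay below all P1 libraries, as in 50.1% of tested genes. Elovl4 (-0.77), Cyp4f39 (-0.43), Aloxe3 (-0.40) and Ugcg (-0.34) fell with overlapping libraries, and the changes of the last 3 were close to the median of all genes. Elovl4 missed the threshold without KO P60 replicate 2 (adjusted p = 0.0548) or WT P60 replicate 2 (adjusted p = 0.0509 in limma).

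Lipn rose by 0.77 (SE 0.11, adjusted p = 9.68e-05 in limma). It had 7.89 and 7.19 RPKM in KO and 4.62 and 4.39 RPKM in WT skin at P60, against 2.87, 3.42 and 3.01 RPKM in KO and 3.03, 2.84 and 4.33 RPKM in WT skin at P1. Every P60 library was above every P1 library, as in 16.5% of tested genes, and WT P1 replicate 3 came closest to the P60 libraries. The P60 mean was 243% of the P1 mean in KO and 132% in WT skin. In Ugcg the P60 mean was 92.3% of the P1 mean in KO and 66.5% in WT skin, in Sdr9c7 69.5% and 42.9%, and in Abca12 61.9% and 38.1%.

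The direction of the age change depended on what it was measured against. With median-of-ratios size factors the median of all genes was 0.0038, Aloxe3 (0.017) and Ugcg (0.080) turned positive without a call, Lipn stayed higher and Abca12, Alox12b, Cers3, Pnpla1 and Sdr9c7 stayed lower as calls. Among all tested genes 5540 were then called lower and 5551 higher, against 8041 lower and 3415 higher with RPKM as deposited. By their median of -1.07, suprabasal markers fell more with age than the members, but the list was mixed. Of 15 markers 12 were called lower and 2 higher, with changes from -3.99 to 0.65. The markers summed to 5324 to 6599 RPKM at P60 against 12605 to 16158 RPKM at P1. Centred on them, 9 members were higher at P60, from 0.28 for Alox12b to 2.11 for Lipn, and Pnpla1 remained lower at -0.22 (adjusted p = 0.0496 in limma). Of the 14026 tested genes 11026 were then called higher and 1202 lower, with a median of 0.95 against 0.57 for the members. Centred on basal markers, 9 members were lower and Lipn higher, with a median of -1.17. The tested genes then had a median of -0.79, with 1775 called higher and 9870 lower. Markers of other cell types also moved with age. All 12 skeletal muscle markers rose (median 3.13) and made up 5.60% to 12.9% of all RPKM at P60 against 1.22% to 2.44% at P1. Of 11 hair shaft and inner root sheath markers 10 fell (median -7.23), of 11 fibroblast markers 7 fell and 3 rose (median -1.37), and of 8 macrophage markers 5 rose and 1 fell (median 0.85). Their part in the age change of the members was not tested. In KO P1 replicate 2, the P1 library with Y-linked reads, 8 members lay within the range of the other 5 P1 libraries and 2 above it. The P60 libraries lay below KO P1 replicate 2 in 9 members and above it in Lipn. These placements were not counted over all tested genes, and a single library cannot tell sex from age.

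**Figure D4:**
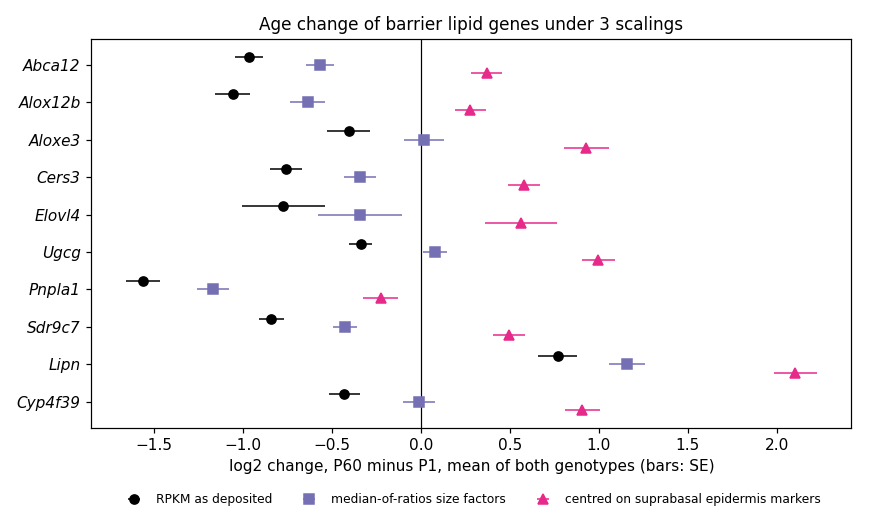
Log2 change of each member, P60 minus P1 averaged over KO and WT, with RPKM as deposited (circles), with median-of-ratios size factors (squares) and centred on suprabasal markers (triangles), with SE as bars. Lipn lies right of 0 and Pnpla1 left of 0 under all 3 scalings, while the other members change side between circles and triangles.

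The wider pathway was described by 65 further genes in 5 lists, of which 64 were tested. At P60, 6 of the 64 rose in KO and 0 fell, beside 8.21% of all tested genes called higher and 2.91% lower, and the median log2 change was 0.30 against 0.13 for all tested genes. The share called was near that of all genes. They were Sptlc3 (0.48, SE 0.13), a subunit of the serine palmitoyltransferase that starts ceramide synthesis, Asah1 (0.54, SE 0.11), the lysosomal acid ceramidase, Alox12e (0.55, SE 0.13), an epidermal lipoxygenase, Aldh3a2 (0.53, SE 0.14), the fatty aldehyde dehydrogenase, and the vesicle traffic genes Vps33b (0.49, SE 0.12) and Rab27a (0.47, SE 0.13). Adjusted p ran from 0.0314 for Asah1 to 0.0475 for Rab27a in limma. By list, 1 of 12 ceramide backbone genes, 0 of 17 genes of fatty acid elongation and activation, 1 of 10 of ceramide processing and turnover, 2 of 15 acylceramide, lipoxygenase and lipase partners and 2 of 10 lamellar granule traffic genes rose. All 6 calls were lost when only P60 samples were fitted or without KO P1 replicate 2. In these settings 0 genes of the whole table passed in limma, against 1560 in the fit of all samples. At P1 none of the 64 passed, and neither did any for the difference between the ages.

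With age 38 of the 64 pathway genes fell and 13 rose, with a median of -0.42, beside 57.3% of all tested genes called lower and 24.3% higher with a median of -0.39. These shares and the median were near those of all genes, whose calls were 5540 lower and 5551 higher with median-of-ratios size factors. Ceramide backbone genes fell in 6 of 12 cases and rose in 1, among them the desaturase genes Degs2 (-1.97) and Degs1 (-0.95) and the palmitoyltransferase subunits Sptlc2 (-0.82) and Sptlc1 (-0.71). Of the 17 elongation and activation genes 9 fell and 4 rose, with falls of Elovl3 (-2.53), an elongase of hair follicles and sebaceous glands, Elovl7 (-2.11), Hsd17b12 (-1.33) and Hacd3 (-0.66), the last pair enzymes of the elongation cycle. Of the 10 processing genes 5 fell and 3 rose, with Acer3 (-0.93), Asah1 (-0.75) and Smpd1 (-0.48), hydrolases of ceramide and sphingomyelin, lower and Psap (0.93), the saposin precursor, higher. Of the 15 partners 11 fell and 3 rose, with Lipk (-1.42), the neighbouring lipase gene family member of Lipn, the cholesterol sulfotransferase gene Sult2b1 (-1.14) and Abhd5 (-0.64), a lipase co-activator that works with Pnpla1, lower. Alox12e was higher by 2.41, at 93.1 and 78.9 RPKM in KO and 59.3 and 57.1 RPKM in WT skin at P60 against 11.3 to 14.3 RPKM at P1. Of the 10 granule traffic genes 7 fell and 2 rose, with Cav1 (-1.35), Ap1s1 (-0.89), Snap29 (-0.81) and Vipas39 (-0.72) lower.

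The members did not all follow a shared profile. The root mean square difference from the mean centred log2 profile of the 10 members, over 10 libraries, was 0.11 for Cers3, 0.14 for Cyp4f39, 0.14 for Sdr9c7, and largest for Lipn (0.70), Pnpla1 (0.46) and Elovl4 (0.30). The genes outside the members with the smallest difference were Eef1a1 (0.050), a translation elongation factor, Erlin1 (0.051), Mbtps1 (0.059), Vcpkmt (0.064) and Zfp746 (0.071). They were chosen for this likeness over the same libraries, so their own genotype and age changes, tested with all other genes, are not read as results.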

How the data were processed

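Total RNA of dorsal skin was sequenced in 10 libraries. Per the labels' protocols, cDNA was made with a NEBNext kit and libraries with a NuGen kit. Per the submitters' processing notes and the file headers, TopHat2 2.1.0 and Partek were used with mm10, and the authors deposited RPKM. The sources used here name no annotation. The authors' deposited comparison table gives a linear ratio of KO over WT with p-values and q-values, from an analysis of variance. RPKM is relative, so a change in abundant genes moves all others.

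RPKM were tested as log2(RPKM + 0.5) with limma 3.58.1 in R 4.3.3, for 14026 genes that reached 1 RPKM in 2 or more libraries, in a model of 4 group means with a mean-variance trend. Benjamini-Hochberg adjustment was made per contrast, and adjusted p under 0.05 was called. The groups of 2 thus borrow spread from P1. The 10 members, lists (150 symbols besides the members, 149 found) and motifs were chosen with earlier results of these data known. Genes named besides the members were called pathway genes, at most 4 a list and contrast by smallest p, and the 5 genes nearest the members' mean profile, passing over predicted genes. The procedure was tested on simulated data. No replicates were identical.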

Additional observations from a re-analysis of the deposited data

How the results depend on the processing

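The 10 members were followed through 22 alternatives in 4 comparisons. Of 860 recomputed log2 changes 757 kept their direction and side of the threshold, 55 missed the threshold, 3 passed it newly and 45 turned round. Many of them could not turn round. Leaving out a P1 library cannot move a log2 change at P60, nor a P60 library a change at P1, only its test. Changing the filter, leaving out the trend, fitting each age alone or adding a replicate block also left every log2 change as it was. Array weights left those at P60 unmoved. At P60 Sdr9c7 was called in 12 of 22 alternatives, Abca12 in 11, Ugcg in 10 and Lipn in 7. The called members at P60, 4 as reported, numbered 0 with quantile normalization, 2 with median-of-ratios size factors, 0 centred on suprabasal markers, 0 centred on basal markers and 0 with the P60 groups alone. They numbered 0 to 4 over the libraries left out in turn. All genes called at P60, 1560 as reported, numbered 502 without a filter, 55 with quantile normalization, 45 centred on basal markers, 741 with array weights, 0 with the P60 groups alone, and 0 to 2443 over the libraries left out. The P60 calls were 19 higher and 36 lower with quantile normalization, 62 and 1444 centred on suprabasal and 3 and 42 centred on basal markers. Median-of-ratios factors put the median of all genes at -0.0046 against 0.13. The age calls were 5255 higher and 5640 lower, 11026 and 1202, and 1775 and 9870 in the same 3 settings. Same-numbered P1 samples had correlations of -0.166, 0.244 and -0.259 of their deviations from group means, so the numbers were not taken as pairs. Different-numbered P1 samples had correlations from -0.265 to 0.337. With 2 libraries a group the P60 correlation must be the same for both pairs, and it was 0.236. A replicate block left 2 genes and 0 members called at P60.

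At P1, 2 genes were called without a filter, 26 with array weights and 0 to 1 over the libraries left out, with 0 members throughout. For the difference between ages 2 genes were called with a pseudocount of 0.1, 19 without a filter, 3 with median-of-ratios factors, 4 centred on suprabasal markers, 3 centred on basal markers, 465 with array weights and 0 to 755 over the libraries left out. Called members there numbered 2 with array weights and 0 to 1 over the libraries left out. Of the age calls of members, 10 as reported, 6 stayed with median-of-ratios factors.

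Turned directions were as follows. At P1 they were Ugcg with quantile normalization (0.0053), median-of-ratios factors (0.012) and array weights (0.018), and with array weights also Aloxe3 (0.044), Cers3 (0.044), Pnpla1 (0.11) and Lipn (0.12). Centred on suprabasal markers at P60 they were Alox12b (-0.079), Aloxe3 (-0.15), Cers3 (-0.15), Pnpla1 (-0.0026) and Cyp4f39 (-0.0059). With age they were Aloxe3 (0.017) and Ugcg (0.080) with median-of-ratios factors, and centred on suprabasal markers Abca12 (0.37), Alox12b (0.28), Aloxe3 (0.93), Cers3 (0.58), Elovl4 (0.56), Ugcg (1.00), Sdr9c7 (0.49) and Cyp4f39 (0.91). For the difference between ages they were Alox12b with quantile normalization (-0.064), median-of-ratios factors (-0.13), basal centring (-0.096) and suprabasal centring (-0.28), and under the last also Aloxe3 (-0.12), Cers3 (-0.095), Elovl4 (-0.011) and Cyp4f39 (-0.092). Over the libraries left out the P1 change ran from -0.093 to 0.010 for Abca12, -0.097 to 0.032 for Cers3, -0.057 to 0.070 for Ugcg, -0.12 to 0.0016 for Sdr9c7, -0.20 to 0.17 for Aloxe3, -0.10 to 0.070 for Pnpla1 and -0.20 to 0.064 for Lipn. The P60 change ran from -0.0042 to 0.39 for Cers3 and -0.049 to 0.98 for Elovl4, and the difference between ages from -0.12 to 0.20 for Alox12b and -0.20 to 0.83 for Elovl4. Beyond what these settings are built to do, the cause was not tested. Depth limits Lipn most, with about 163 reads in the lowest library and a counting error of 7.83% there.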

Other observations

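Elovl4 was the most variable member at P60, with a coefficient of variation of 43.3% in KO and 48.9% in WT skin, against at most 20.8% for the other members. Its order over the 4 P60 libraries, 111 and 58.8 RPKM in KO replicates 1 and 2 and 83.6 and 40.6 RPKM in WT replicates 1 and 2, was that of the summed sebaceous gland markers, 169 and 83.3 RPKM in KO and 102 and 59.3 RPKM in WT skin. The summed ceramide backbone genes, which share Fa2h with these markers, had the same order, 275 and 211 RPKM in KO and 217 and 174 RPKM in WT skin. At P1 the libraries highest in Elovl4, KO replicate 2 (139 RPKM) and WT replicate 2 (140 RPKM), were also the highest in the sebaceous markers within their groups, at 162 and 158 RPKM. The same libraries were also the highest of their groups in summed hair shaft and inner root sheath markers, at 3303 and 3873 RPKM, so the agreement at P1 was not particular to sebaceous markers. All 11 sebaceous markers were above 0 in every library, 10 of them were tested, and their part in the level of Elovl4 was not tested. Both patterns were noticed in the data and rest on few libraries.

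Lipn stands in a cluster of acid lipase genes with Lipk and Lipm. With RPKM as deposited these neighbours fell with age where Lipn rose, Lipk by 1.42 and Lipm by 0.58 on the log2 scale (SE 0.16 and 0.088, limma). In that scaling 57.3% of all tested genes were called lower, with a median of -0.39. Lipk and Lipm were not examined under the other scalings. Lipm, picked here after its values were seen, had 24.9 and 26.8 RPKM in KO and 22.8 and 19.5 RPKM in WT skin at P60, against 29.3 to 40.0 RPKM at P1. At P60 Lipk had 2.93 and 2.09 RPKM in KO against 1.46 and 1.28 RPKM in WT skin.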
